A study of Gasterosteus aculeatus with 12 samples.

Results

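The series examined here is made of the 9 kidney libraries of freshwater (FW) threespine sticklebacks, *Gasterosteus aculeatus*, out of 12 libraries in all. It was chosen as the ordered set of salinities to which fish of 1 population were acclimated. FW00K, FW11K and FW33K are adult female fish of a freshwater population acclimated over 30 days to water of 0, 11 and 33 g/L salt, with 3 libraries each, and the study describes the 3 replicates of a treatment as individual fish. All fish were wild-caught and of no defined strain, and only females were used. The other 3 libraries, SW33K, come from a saltwater population at 33 g/L and enter only where they are named. Expression is given as FPKM, the fragments of a gene relative to the length of its transcript and to all mapped reads of the library, as estimated by the authors. The table holds 20860 Ensembl genes. To bring the 9 libraries to a common level, each was divided by the median of its gene-wise ratios to their geometric mean, and these values are called scaled FPKM. The depth of the libraries is not held in FPKM values, so no counting error can be given.

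The question addressed was which form the response to salinity takes when a brackish step lies between fresh and sea water. A freshwater fish gains water and loses ions, and its kidney filters much plasma at the glomerulus, recovers salt along the tubule and makes dilute urine. A fish in sea water loses water, filters less, and its tubule secretes divalent ions. The kidney of teleost fish is also their main blood-forming organ, so that red cell precursors, lymphocytes and phagocytes are part of the tissue sampled. Cells facing high osmolality are known to adjust organic osmolytes such as myo-inositol and taurine, and the unfolded protein response of the endoplasmic reticulum (ER) is the program that raises chaperones when folding demand grows.

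The labelled tissue was checked with markers of its cell types. Podocyte genes (*NPHS1*, *PODXL*, *WT1*), tubule transporters (*SLC34A1*, *SLC12A1*, *SLC12A3*) and blood cell genes were all detected, with 8 podocyte, 20 proximal tubule, 6 distal tubule, 11 erythroid, 15 lymphoid and 11 myeloid genes among those tested. Markers of other tissues were not absent. Sums of a list cover all its genes with an identifier, also those too low to be tested. The summed scaled FPKM of 14 skeletal muscle genes, 12 of them tested, was 75.2, 312 and 328 in the FW00K libraries (replicates 1, 2 and 3), 49.3, 35.4 and 36.9 in FW11K and 19.7, 14.3 and 14.9 in FW33K. That of 12 germ cell genes, 5 of them tested, was 46.4 in FW00K replicate 1 and between 4.89 and 38.4 in the other 8 libraries. Gene symbols are known here only for 1326 tested genes, nearly all from the study's own table of salt-responsive genes. These were selected on the same libraries, so the direction of any gene list below is not independent evidence.

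The libraries of a salinity did not stand at equal distances from each other. Across the tested genes, which are not independent of each other, Pearson's r of log2(scaled FPKM + 1) lay at 0.990 to 0.992 for replicates 2 and 3 of a salinity, 0.854 to 0.938 for replicate 1 and another library of its salinity, and 0.747 to 0.901 for libraries of different salinities. If replicates 2 and 3 were not separate samples, a test that counts 9 libraries gives p-values below the true ones. Counts with these replicates averaged as 1 sample are therefore given for the whole table and for the gene lists, and for the genes named the values of all 9 libraries. Before scaling, the median log2 difference of all tested genes was -0.33 between FW11K and FW00K and -1.20 between FW33K and FW00K, and after scaling it was 0.02 and -0.02. The 20 most abundant genes took 10.8% to 11.9% of the FPKM sum in FW00K, 18.0% to 19.8% in FW11K and 28.1% to 41.8% in FW33K. The study lists replicate 1 of FW11K and of FW33K as the least deeply sequenced libraries of the series. It lists replicate 1 of FW00K as the most deeply sequenced. Replicate 1 correlated with the other libraries of its salinity at 0.854 and 0.864 in FW00K, 0.864 and 0.872 in FW11K, and 0.932 and 0.938 in FW33K. The part of depth in the distance of replicate 1 was not tested.

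Over all genes, the profile of FW11K lay on average about where a straight line in salinity would put it, but its 3 libraries did not lie together. Each library was projected on the line that leads through the mean FW00K profile, set to 0, and the mean FW33K profile, set to 1, over the 15421 genes tested, whose mean was 1 scaled FPKM or more. The FW11K libraries, which do not enter this line, lay at 0.475, 0.241 and 0.256 (replicates 1, 2 and 3), a mean of 0.324 ± 0.131 (SD, n = 3), while 11 g/L is 33.3% of the way to 33 g/L. End libraries projected on the line made without them lay at 0.119 to 0.124 in FW00K and at 0.837 to 0.980 in FW33K. Replicate 1 of FW11K was nearer to FW33K than replicates 2 and 3 were, and without it the mean position was 0.249. The FW11K libraries also stood off this line. They were 0.625, 0.906 and 0.889 away from the line (root mean square over genes, log2 scale), where the whole line is 1.02 long and the end libraries, which help to make it, stood 0.249 to 0.569 away.

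**Figure D1:**
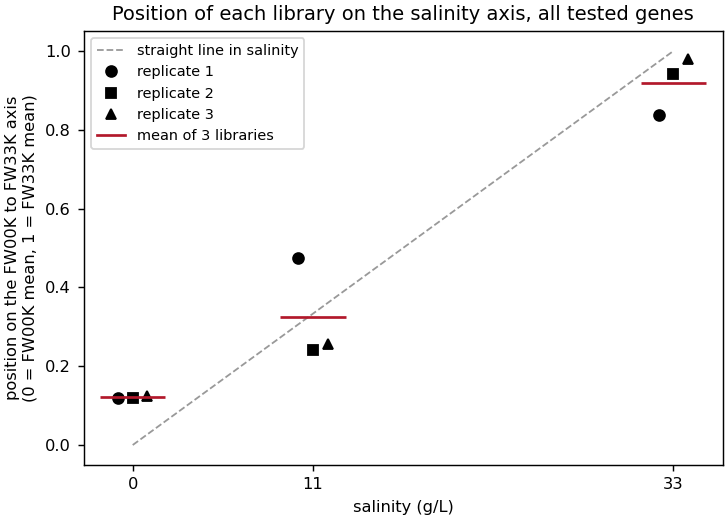
Position of each of the 9 libraries (y axis, 0 is the FW00K mean and 1 the FW33K mean profile over 15421 genes) against salinity in g/L (x axis), with the mean of each salinity as a bar and a straight line in salinity dashed. The FW11K libraries sit at 0.475, 0.241 and 0.256, with replicate 1 above the line and replicates 2 and 3 below it.

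Of the 15421 tested genes, 2790 (18.1%) differed over the 3 salinities (limma moderated F test on log2(scaled FPKM + 1), Benjamini-Hochberg adjusted p under 0.01). Each of them was placed by its position, the share of the log2 difference between FW33K and FW00K that was present in FW11K. A position within 0.25 of 0.5 was called gradual, within 0.25 of 1 complete at 11 g/L, and within 0.25 of 0 a change only at 33 g/L, and genes whose FW11K mean lay further outside the range of the ends were called a peak or a dip at 11 g/L. No shape held a majority. The change came only at 33 g/L in 698 genes (25% of those past the test), was gradual in 691 (24.8%) and complete at 11 g/L in 459 (16.5%), while 485 genes (17.4%) peaked and 457 (16.4%) dipped at 11 g/L. The peaks were 3.15% and the dips 2.96% of all tested genes.

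Rises and falls were unequal in number within each one-way shape. Of the genes that changed only at 33 g/L, 579 were higher in FW33K (3.75% of all tested genes) and 119 lower (0.772%). Of the gradual genes, 420 were higher (2.72%) and 271 lower (1.76%). Among genes whose change was complete at 11 g/L, 172 were higher (1.12%) and 287 lower (1.86%). The one-way shapes together held 1171 genes higher (7.59% of all tested genes) and 677 lower (4.39%) in FW33K, so 63.4% were higher. This split depends on the scaling: it was 57.4% with quantile normalization, 71.5% among genes averaging 5 FPKM or more, and 2.58% in FPKM without scaling. Ranges between the highest and the lowest mean were widest in genes higher only at 33 g/L, with a median of 1.98 on the log2 scale, and narrowest in genes higher and complete at 11 g/L, with a median of 1.11. As a class, the genes whose fall was complete at 11 g/L were the least abundant, with a median of 5.78 scaled FPKM, against 32.7 scaled FPKM in genes that rose gradually.

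**Figure D2:**
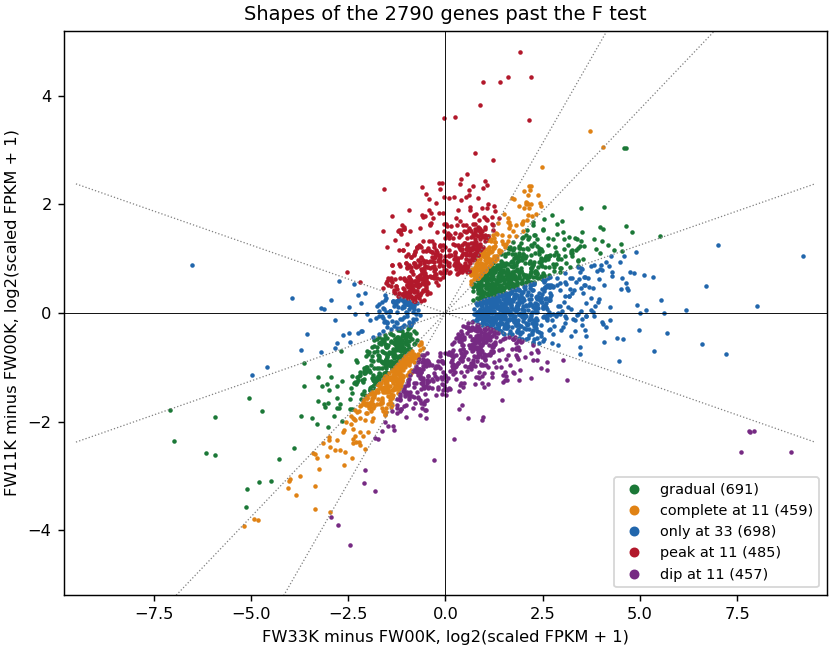
Difference of FW11K from FW00K (y axis) against difference of FW33K from FW00K (x axis), both as log2(scaled FPKM + 1), for the 2790 genes past the F test, which share the FW00K libraries on both axes. Dotted lines mark the borders between the shapes, and colours give the 5 shapes with their counts, of which the 698 genes changed only at 33 g/L lie along the x axis.

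The number of genes past the test depended on single libraries and on how replicates 2 and 3 were counted. Averaging replicates 2 and 3 left 7 genes past the threshold (3125 at an unadjusted p under 0.05, against 8146 with 9 libraries). These were *HAS2*, *MIOX*, *PI16*, *SLC25A48*, *CTSE* and 2 genes with no symbol (ENSGACG00000004242 and ENSGACG00000020917), and 6 of the 7 had changed only at 33 g/L. The count for the 9 libraries was 6765 without replicate 1 of FW11K and 819 without replicate 3 of FW33K, of which 815 were among the 2790 and 785 had the same shape and direction as with 9 libraries. When the shape was read from replicate 1 alone and from replicates 2 and 3 alone, 2680 of the 2790 genes (96.1%) had the same direction between FW00K and FW33K in the 2 readings, against 71.6% of all tested genes, and 1276 (45.7%) had the same shape and direction, against 26.4%. The 2790 genes were chosen by a test on the same libraries, which favours genes whose replicates agree, so these excesses are no independent evidence. Over genes higher only at 33 g/L, the position was 0.23 in replicate 1 of FW11K and -0.05 and -0.04 in replicates 2 and 3, and over the dips it was 0.09, -0.23 and -0.20. Of the 2790 genes, 174 lay within 0.05 of the border between gradual and only at 33 g/L, and 149 within 0.05 of the border between gradual and complete.

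A test of the shape itself asked whether the FW11K mean was off the straight line in salinity, which puts it 33.3% of the way between the FW00K mean and the FW33K mean on the log2 scale. It was passed by 385 of 15421 genes (2.50%), 181 of them above the line (1.17%) and 204 below it (1.32%). The 385 genes held 162 of the 485 peaks and 153 of the 457 dips, 44 of the 459 genes complete at 11 g/L, 25 of the 698 genes changed only at 33 g/L and 1 of the 691 gradual genes. With replicates 2 and 3 averaged no gene passed (limma, 1573 at an unadjusted p under 0.05). The count was 4133 without replicate 1 of FW11K and 1 without replicate 2 or replicate 3 of FW11K. Counted without a model, all 3 FW11K libraries lay above the other 6 in 1076 genes (6.98%) and below them in 923 (5.99%), and they did so in 390 of the 485 peaks and 337 of the 457 dips. The peaks and dips were chosen on the same libraries, so their high shares follow in part from that choice.

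Several genes stayed near their freshwater level at 11 g/L and were far higher at 33 g/L. *HAS2* (ENSGACG00000005603) makes hyaluronan, a water-binding polysaccharide of the extracellular matrix. It was at 0.173, 0.614 and 0.503 scaled FPKM in FW00K, 1.48, 2.42 and 1.92 in FW11K, and 603, 968 and 981 in FW33K. The 3 groups did not overlap, the FW33K libraries stood far above the rest, and the position of FW11K was 0.113 (range 9.20 on the log2 scale, limma adjusted p = 5.74e-07). Its FW11K mean was below the straight line by 2.02 (standard error 0.21, limma adjusted p = 0.00359). *PI16* (ENSGACG00000000511), a peptidase inhibitor, was at 1.98, 3.14 and 2.41 scaled FPKM in FW00K, 0.341, 2.42 and 1.80 in FW11K, and 449, 270.3 and 316 in FW33K. FW00K and FW11K overlapped and FW33K stood apart, with a position of -0.0864 (limma adjusted p = 2.63e-05). *BEST3* (ENSGACG00000014663), of the bestrophin family of anion channels, was at 1.55, 4.32 and 4.70 scaled FPKM in FW00K, 6.48, 2.23 and 2.60 in FW11K, and 238, 342 and 367 in FW33K. Its position was 0.00923 (limma adjusted p = 8.32e-05), so that its FW11K mean lay at the freshwater level.

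Genes lower only at 33 g/L included *MIOX* (ENSGACG00000012900), the enzyme that opens myo-inositol breakdown in the proximal tubule. Scaled FPKM was 117, 104 and 106 in FW00K, 176, 215 and 215 in FW11K, and 0.179, 0.149 and 0.273 in FW33K. All FW11K libraries were above all FW00K libraries, and those of FW33K were near 0 (position -0.135, limma adjusted p = 1.71e-07). The FW11K mean stood 3.05 above the straight line (standard error 0.13, limma adjusted p = 6.10e-05). *SLC22A7* (1 of 2), an organic anion transporter, was at 36.2, 30.3 and 31.6 scaled FPKM in FW00K, 30.9, 21.6 and 22.4 in FW11K, and 4.80, 1.13 and 0.894 in FW33K. *QDPR*, which regenerates tetrahydrobiopterin, was at 28.2, 35.0 and 34.9 scaled FPKM in FW00K, 61.3, 26.9 and 30.9 in FW11K, and 8.63, 5.63 and 5.61 in FW33K. In both genes the FW33K libraries lay below all others, and the 61.3 of *QDPR* in FW11K replicate 1 made its series a peak when read from replicate 1 alone. *MAT2A* (1 of 2), which makes the methyl donor S-adenosylmethionine, was higher only at 33 g/L, with 39.98, 63.6 and 61.8 scaled FPKM in FW00K, 126, 76.5 and 78.7 in FW11K, and 1741, 1477 and 1532 in FW33K.

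Gradual rises included *SEC61B* (ENSGACG00000009022), a subunit of the channel that takes proteins into the ER. It was at 44.1, 65.8 and 65.9 scaled FPKM in FW00K, 460, 156 and 162 in FW11K, and 904, 1037 and 1045 in FW33K. No groups overlapped, but replicate 1 of FW11K stood well above replicates 2 and 3 (position 0.479, limma adjusted p = 0.000798). *FKBP11*, an ER prolyl isomerase, was at 8.01, 16.1 and 15.5 scaled FPKM in FW00K, 48.8, 27.7 and 27.0 in FW11K, and 214, 227 and 223 in FW33K. *TTLL12*, of the tubulin tyrosine ligase-like family, was at 4.37, 3.44 and 3.81 scaled FPKM in FW00K, 22.3, 10.6 and 10.5 in FW11K, and 72.7, 73.4 and 78.6 in FW33K. The middle step of these genes lay between the ends in every library. By their means, the positions of *FKBP11* and *TTLL12* were 0.330 and 0.399, close to the 33.3% of a straight line. Neither gene departed from that line past the test (limma adjusted p = 0.974 and 0.449), which does not show that they follow it. *FKBP11* was gradual in replicate 1 and changed only at 33 g/L in replicates 2 and 3, while *TTLL12* was gradual in both readings.

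Gradual falls included transporters and an enzyme. *SLC16A4* (ENSGACG00000007935), of the monocarboxylate transporter family, was at 86.8, 56.7 and 57.8 scaled FPKM in FW00K, 29.3, 5.30 and 5.88 in FW11K, and 0.140, 0.116 and 0.0711 in FW33K. Its groups did not overlap (position 0.441, limma adjusted p = 0.000539). *ABCB4*, a phospholipid transporter, was at 77.5, 88.2 and 89.5 scaled FPKM in FW00K, 8.72, 14.5 and 14.5 in FW11K, and 10.9, 1.69 and 1.67 in FW33K. Replicate 1 of FW33K was at the level of FW11K, so that its fall was complete at 11 g/L in replicate 1 and gradual in replicates 2 and 3. *AGXT2* (2 of 2), a mitochondrial aminotransferase, was at 154, 166 and 173 scaled FPKM in FW00K, 120, 27.9 and 29.2 in FW11K, and 1.78, 8.66 and 8.09 in FW33K. Here replicate 1 had most of its fall above 11 g/L and replicates 2 and 3 most of theirs below it.

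Where the change was already complete at 11 g/L, FW11K and FW33K were alike by their means and FW00K stood alone. *LGALS1* (3 of 3), a galectin, was at 7.86, 5.63 and 5.55 scaled FPKM in FW00K, 35.0, 47.5 and 58.1 in FW11K, and 33.9, 42.8 and 42.7 in FW33K. *PPA1* (1 of 2), a pyrophosphatase, was at 13.8, 13.6 and 13.8 scaled FPKM in FW00K, 60.4, 66.6 and 68.5 in FW11K, and 67.6, 78.6 and 82.0 in FW33K. Both had the same shape in every reading and lay above the straight line, by 1.86 (standard error 0.20, limma adjusted p = 0.00359) and 1.37 (standard error 0.13, limma adjusted p = 0.00303). *HBM*, of the haemoglobin alpha family, was at 15.5, 18.2 and 18.0 scaled FPKM in FW00K, 159, 65.1 and 71.6 in FW11K, and 79.3, 82.95 and 85.6 in FW33K. Replicate 1 of FW11K was its highest library, and read from replicate 1 alone *HBM* was a peak.

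Falls that were complete at 11 g/L included *PTPRQ* (ENSGACG00000013064), a receptor-type phosphatase. It was at 23.5, 48.6 and 48.6 scaled FPKM in FW00K, 6.23, 3.39 and 3.89 in FW11K, and 3.14, 2.85 and 3.27 in FW33K, and lay below the straight line by 1.78 (standard error 0.27, limma adjusted p = 0.00726). *IGFBP5* (1 of 2), a binding protein of insulin-like growth factors, was at 75.9, 69.4 and 70.5 scaled FPKM in FW00K, 18.9, 10.9 and 12.0 in FW11K, and 8.47, 10.7 and 9.79 in FW33K. *CYP1A2*, a cytochrome P450 that is induced through the aryl hydrocarbon receptor in mammals, was at 37.6, 28.0 and 27.6 scaled FPKM in FW00K, 8.93, 4.74 and 5.57 in FW11K, and 8.47, 3.76 and 4.13 in FW33K. In all of them FW00K stood above the other 6 libraries. Read from replicate 1 alone, *PTPRQ* and *IGFBP5* were gradual falls, and *CYP1A2* kept its shape. *ATP2A1* (2 of 2), the calcium pump of skeletal muscle, also had this shape, with 3.42, 30.1 and 31.6 scaled FPKM in FW00K, 1.39, 0.327 and 0.340 in FW11K, and 0.0759, 0.231 and 0.135 in FW33K. Muscle creatine kinase *CKM* (1 of 2) had it by its mean (position 0.77), at 6.15, 97.6 and 101 scaled FPKM in FW00K, 4.26, 1.16 and 1.39 in FW11K, and 0.242, 0.491 and 0.389 in FW33K. Its shape did not stay the same without each library in turn. Read from replicate 1 alone, *ATP2A1* fell gradually and *CKM* only at 33 g/L. For both muscle genes the level in FW00K rests on replicates 2 and 3, where the summed muscle markers were 312 and 328 scaled FPKM. Both genes are themselves part of that sum, so it is no separate measure of muscle. The part of muscle tissue in these falls was not tested.

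**Figure D3:**
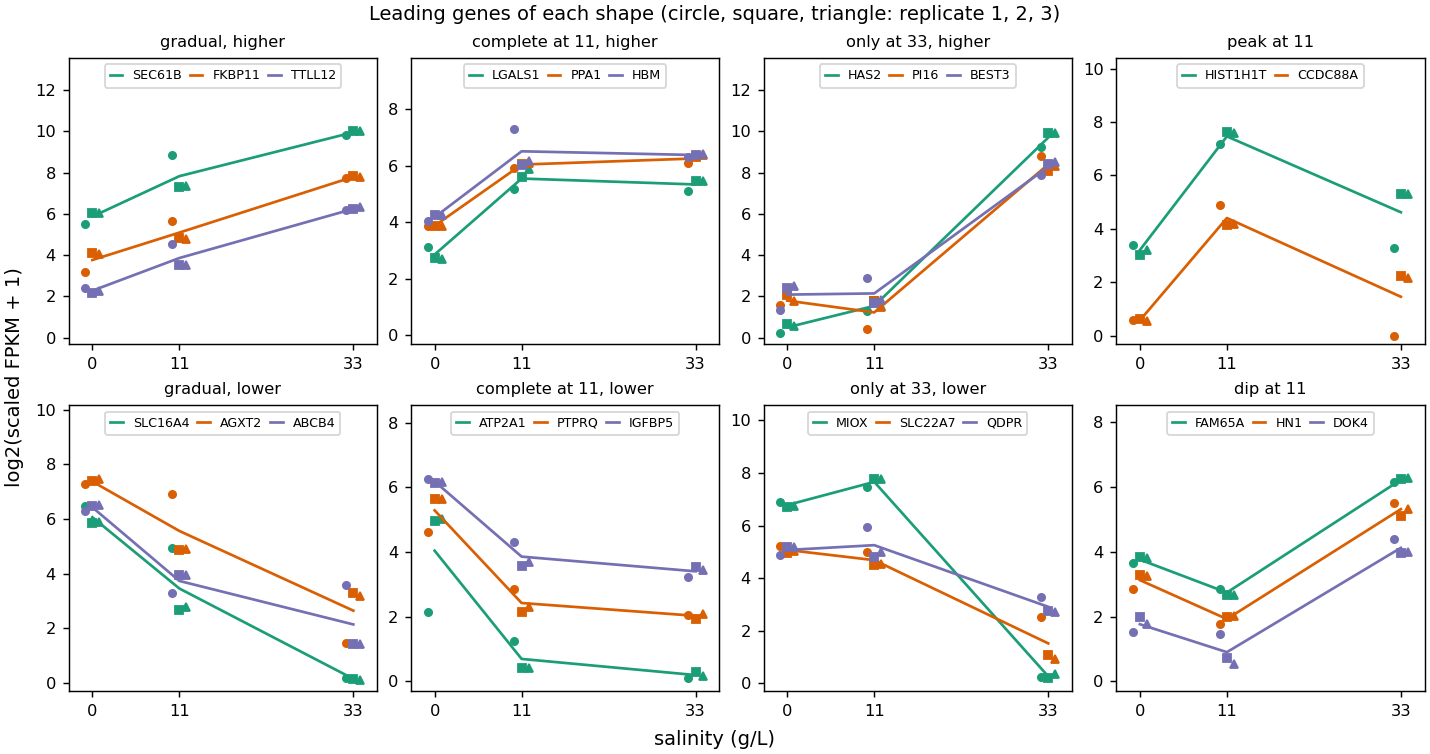
Named genes, 2 or 3 for each of the 8 classes of shape and direction, as log2(scaled FPKM + 1) (y axis) against salinity in g/L (x axis), with a point for each library and lines through the group means. *HAS2* stays at 1.48 to 2.42 scaled FPKM in FW11K and stands at 603 to 981 in FW33K, whereas *PPA1* is at 60.4 to 68.5 in FW11K already.

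Peaks at 11 g/L included *HIST1H1T* (ENSGACG00000007312), a linker histone known from the testis of mammals. It was at 9.55, 7.05 and 8.37 scaled FPKM in FW00K, 143, 195 and 194 in FW11K, and 8.71, 38.3 and 38.4 in FW33K. Every FW11K library was above the other 6, while FW33K overlapped FW00K through replicate 1 (limma adjusted p = 0.00132, and 0.00384 for 3.78 above the straight line with a standard error of 0.43). *CCDC88A* (2 of 2), the actin-binding protein girdin, was at 0.494, 0.537 and 0.462 scaled FPKM in FW00K, 28.7, 16.9 and 17.1 in FW11K, and 0, 3.74 and 3.45 in FW33K. In this gene as well FW11K stood above the other libraries, and replicate 1 of FW33K was below the freshwater level.

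Dips at 11 g/L included *FAM65A* (ENSGACG00000002497). It was at 11.6, 13.1 and 12.9 scaled FPKM in FW00K, 6.27, 5.40 and 5.39 in FW11K, and 70.2, 74.2 and 75.8 in FW33K, without overlap of any groups (limma adjusted p = 8.25e-06). The FW11K mean lay below the straight line by 1.84 (standard error 0.12, limma adjusted p = 0.000618). *DOK4*, a docking protein of receptor tyrosine kinases, was at 1.87, 2.99 and 2.40 scaled FPKM in FW00K, 1.75, 0.633 and 0.453 in FW11K, and 20.1, 14.7 and 14.8 in FW33K. *HN1* (1 of 2) was at 6.18, 8.68 and 8.51 scaled FPKM in FW00K, 2.43, 2.92 and 3.04 in FW11K, and 44.5, 33.4 and 39.0 in FW33K. All 3 genes were highest in FW33K, so that by their means the dip was a step down before a larger rise. Read from replicate 1 alone, *DOK4* rose only at 33 g/L, and its FW11K replicates 2 and 3 were below 1 scaled FPKM.

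Gene lists, written with earlier results of these data known and drawn from genes the study had selected on these libraries, differed in their shapes. Since 78.4% of the 1326 tested genes with a symbol passed the F test, counts are given beside the share of these genes in each class of direction: 47.2% were one-way and higher in FW33K, 21.0% one-way and lower, 4% peaks and 6.18% dips. With replicates 2 and 3 averaged few members of any list passed (limma, those at an unadjusted p under 0.05 in brackets). It was 0 (40) of 40 ER-Golgi transport genes, 2 (19) of 23 for collagen and extracellular matrix, 1 (11) of 13 for osmolytes, 1 (17) of 20 for the proximal tubule and 0 (18) of 21 for the list labelled amino acid and purine breakdown. No gene passed of 12 for antigen processing (11), 11 erythroid (9), 22 cell cycle (13) and 9 respiratory chain genes (8). The largest list, of 81 genes for ER translocation, folding and the unfolded protein response, had 75 past the test and all 75 higher in FW33K, of which 48 were gradual, 26 changed only at 33 g/L and 1 was complete at 11 g/L. Several of the 81 are copies of *SSR1* among which reads may be split. The median difference over the 81 genes was 0.76 between FW11K and FW00K and 2.65 between FW33K and FW00K (log2), where the median of all tested genes was 0.02 and -0.02. FW33K and FW00K libraries did not overlap in 80 of the 81 genes, against 54.3% of all tested genes. No one-way gene past the F test had overlap of these groups, so this share follows largely from the selection of the genes.

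The middle step of the ER genes differed between the FW11K libraries. Their summed scaled FPKM was 3000, 3810 and 3760 in FW00K, 13000, 5260 and 5270 in FW11K, and 36700, 34300 and 35000 in FW33K, and their position was 0.51 in FW11K replicate 1 and 0.14 and 0.15 in replicates 2 and 3. *DNAJC10*, an ER disulfide reductase, was at 10.1, 23.2 and 23.6 scaled FPKM in FW00K, 99.2, 6.96 and 7.21 in FW11K, and 1008, 870 and 897 in FW33K. The FW11K libraries of this gene fell on either side of the freshwater range, so it was gradual in replicate 1 and a dip in replicates 2 and 3. *XBP1*, a transcription factor of the unfolded protein response, was at 39.7, 66.5 and 67.7 scaled FPKM in FW00K, 599, 64.3 and 67.0 in FW11K, and 1903, 1063 and 1090 in FW33K. Its FW11K replicates 2 and 3 were at the freshwater level. *PDIA4*, a protein disulfide isomerase, was steadier, at 28.2, 44.0 and 44.5 scaled FPKM in FW00K, 74.9, 49.7 and 48.4 in FW11K, and 1398, 800.0 and 825 in FW33K. With replicates 2 and 3 averaged none of the 81 genes passed (80 at an unadjusted p under 0.05), and in 80 of the 81 FW33K was above FW00K both in replicate 1 and in replicates 2 and 3. Without scaling, 36 of the 81 genes passed, 33 of them higher and 3 as dips, and the median difference between FW33K and FW00K was 1.26. Of all 15621 genes tested in that setting 8588 passed, 185 of them one-way and higher, and the median difference was -1.2.

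The 40 tested genes of ER-Golgi transport followed the same order, with 24 gradual and 12 changed only at 33 g/L among those higher in FW33K, 1 gradual and lower, and 2 dips. Their summed scaled FPKM was 1030, 1120 and 1150 in FW00K, 2410, 1570 and 1600 in FW11K, and 4860, 5380 and 5580 in FW33K. *SURF4*, a cargo receptor, was at 27.1, 35.3 and 35.0 scaled FPKM in FW00K, 78.3, 36.1 and 37.2 in FW11K, and 227, 318 and 318 in FW33K. *TMED3*, of the p24 family of vesicle proteins, was at 12.6, 13.8 and 14.3 scaled FPKM in FW00K, 56.5, 16.3 and 17.1 in FW11K, and 128, 131 and 137 in FW33K. *MCFD2*, a partner of a lectin cargo receptor, was at 10.8, 11.3 and 9.67 scaled FPKM in FW00K, 69.5, 11.6 and 10.1 in FW11K, and 215, 139 and 141 in FW33K. In each of the 3 genes replicate 1 of FW11K lay well between the ends, and replicates 2 and 3 were close to FW00K. Without scaling, 9 of the 40 genes passed, 6 of them one-way and higher, and the median difference between FW33K and FW00K was 0.59. Of all 15621 genes tested in that setting 8588 passed, 185 of them one-way and higher, with a median difference of -1.2.

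Among 23 genes of collagen and extracellular matrix, 12 rose in FW33K (5 only at 33 g/L, 4 gradually and 3 with the change complete at 11 g/L), 4 fell and 2 dipped at 11 g/L. The share past the F test was 78.3%, against 78.4% of tested genes with a symbol, of which 47.2% were one-way and higher. Without scaling 4 were one-way and higher, 6 one-way and lower, 3 peaks and 1 dip. Of all 15621 genes tested without scaling, 8588 passed, 185 of them one-way and higher and 6975 one-way and lower. The median difference between FW33K and FW00K was then 0.35 over the list and -1.2 over all tested genes. *HAS2* and *PI16*, described above, are on this list. *DPT*, the matrix protein dermatopontin, rose gradually, with 4.26, 3.88 and 3.96 scaled FPKM in FW00K, 5.58, 19.1 and 19.97 in FW11K, and 34.2, 43.2 and 42.6 in FW33K. The list of organic osmolyte and osmotic response genes had 10 of 13 past the test, 5 higher, 4 lower and 1 peak, and without scaling 7 past the test, 1 higher, 5 lower and 1 peak. *CDO1*, which starts taurine synthesis from cysteine, was gradual by its mean, at 7.32, 18.7 and 17.5 scaled FPKM in FW00K, 111, 21.3 and 21.7 in FW11K, and 854, 572 and 583 in FW33K. *FKBP5*, a glucocorticoid-inducible co-chaperone in mammals, was at 35.4, 38.8 and 39.0 scaled FPKM in FW00K, 344, 57.9 and 61.6 in FW11K, and 596, 376 and 385 in FW33K. Both showed most of their middle step in replicate 1 of FW11K.

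**Figure D4:**
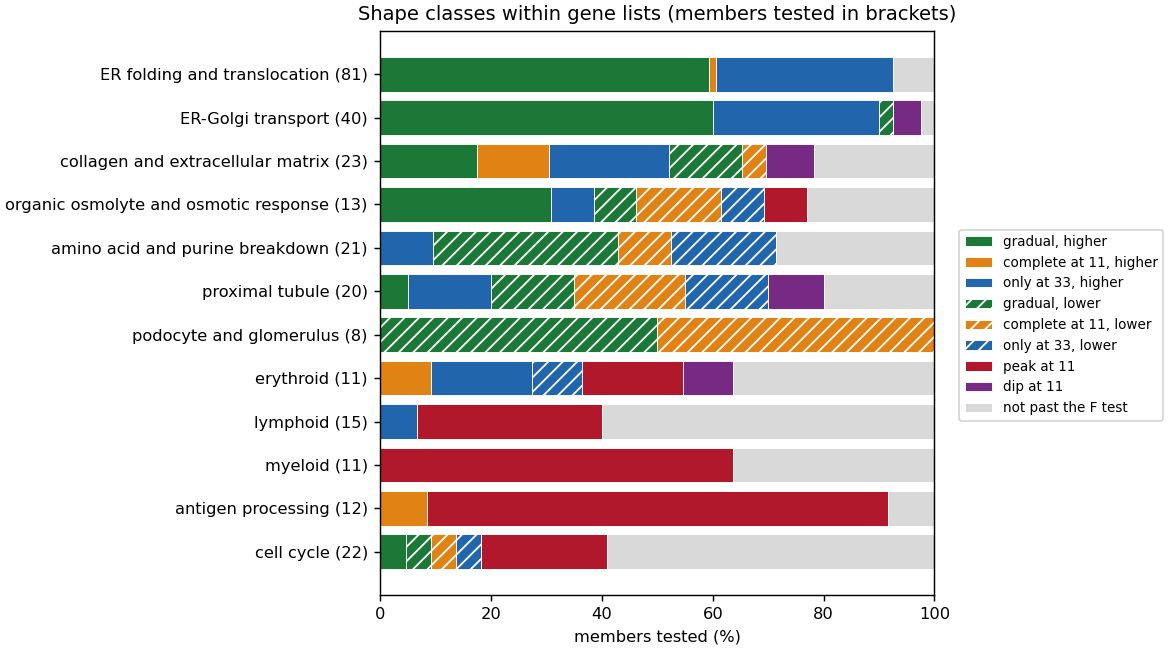
Share of the tested members (x axis, %) of 12 gene lists (y axis, number of tested members in brackets) in each class of shape and direction. Of the 81 ER genes 48 are gradual and higher and 26 higher only at 33 g/L, the 8 podocyte genes are all lower, and peaks hold 7 of 11 myeloid and 10 of 12 antigen processing genes.

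Podocyte genes fell, and much of the fall was present at 11 g/L. All 8 podocyte genes tested passed the F test and were lower in FW33K, 4 gradually and 4 with the fall complete at 11 g/L. Of tested genes with a symbol, 78.4% passed and 21.0% were one-way and lower. In all 8 podocyte genes FW33K was below FW00K both in replicate 1 and in replicates 2 and 3. This held for 5512 of the 15421 tested genes. Symbols come nearly all from the study's selection on these libraries, so the comparison is no independent evidence. Their median difference from FW00K was -1.49 in FW11K and -2.06 in FW33K (log2). *NPHS1*, the slit diaphragm protein nephrin, was at 33.0, 52.7 and 52.1 scaled FPKM in FW00K, 11.5, 8.11 and 7.97 in FW11K, and 7.63, 5.70 and 5.85 in FW33K. Its FW11K mean was below the straight line by 1.31 (standard error 0.20, limma adjusted p = 0.00797). *WT1* (2 of 2), a transcription factor of podocytes, was at 19.5, 15.1 and 15.3 scaled FPKM in FW00K, 8.33, 3.51 and 3.74 in FW11K, and 2.92, 2.51 and 3.33 in FW33K. In bulk tissue, fewer cells of a type and less RNA per cell cannot be told apart. Without replicate 1 of FW11K, 8 of the 8 genes were past the test, where 6765 of all 15431 genes passed. Without replicate 1 of FW00K 8 podocyte genes passed, and without replicate 1 of FW33K 7 did. Leaving out replicate 2 or replicate 3 of any 1 salinity left 6 past the test. With replicates 2 and 3 averaged none was (limma, 8 at an unadjusted p under 0.05).

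Proximal tubule genes did not share a shape. Of 20 tested, 10 fell (4 complete at 11 g/L, 3 gradual and 3 only at 33 g/L), 4 rose, 2 dipped and 4 did not pass. The share past the F test was 80%, against 78.4% of tested genes with a symbol. Of those genes 21.0% were one-way and lower and 47.2% one-way and higher. *SLC5A8*, a sodium-coupled monocarboxylate transporter, rose only at 33 g/L, with 0.0666, 0.275 and 0.231 scaled FPKM in FW00K, 1.46, 0.0644 and 0.0583 in FW11K, and 43.2, 60.3 and 60.6 in FW33K. Among 21 genes of the list labelled amino acid and purine breakdown, 13 fell (7 gradually, 4 only at 33 g/L and 2 complete at 11 g/L) and 2 rose. The share of this list past the F test was 71.4%. The tested nucleotide genes of this list, *UPP2* and *DPYD*, act on pyrimidines, so these counts do not cover purine breakdown. Some other members, such as *BCO2*, are not enzymes of amino acid breakdown. *UROC1*, of histidine breakdown, was at 161, 264 and 270 scaled FPKM in FW00K, 237, 65.6 and 66.1 in FW11K, and 9.34, 4.90 and 5.24 in FW33K. *PIPOX*, an oxidase of sarcosine and pipecolate, was at 62.1, 124 and 129 scaled FPKM in FW00K, 76.3, 43.0 and 43.2 in FW11K, and 10.02, 5.64 and 6.28 in FW33K. For both genes replicate 1 of FW11K was within the FW00K range and replicates 2 and 3 were between the ends. The summed level of the 22 genes of this list with an identifier, 21 of them tested, was 2030, 2800 and 2850 scaled FPKM in FW00K, 2670, 963 and 991 in FW11K, and 1230, 1120 and 1140 in FW33K.

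Of the study's reference genes for salt handling and blood pressure, several did not pass the F test. The study lists *SLC12A3*, *ATP1B1*, *ACE* and *MAP3K15* as salt-responsive, from read counts compared between pairs of treatments, FW33K and SW33K among them. That is another measure and contrast, so failing the F test does not show a lack of response. Quantitative RT-PCR of the study covered *SLC12A3*, *MAP3K15* and *PRKG1* among others. By the study's account it bore out the level of FW33K relative to FW00K for all but 1 of the selected genes. The text of the study describes *SLC12A3* as up-regulated with salinity, while its own listed FPKM fall from FW00K to FW33K. *SLC12A3*, the sodium-chloride cotransporter of the distal tubule, was at 125, 114 and 117 scaled FPKM in FW00K, 34.8, 127 and 132 in FW11K, and 48.1, 49.5 and 51.8 in FW33K (limma adjusted p = 0.113). FW33K lay below FW00K without overlap, but replicate 1 of FW11K was the lowest of the 9 libraries and replicates 2 and 3 the highest. *ATP1B1* (2 of 2), a subunit of the sodium pump, was at 579, 683 and 684 scaled FPKM in FW00K, 621, 339 and 343 in FW11K, and 263, 246 and 244 in FW33K (limma adjusted p = 0.0124). *ACE*, the angiotensin-converting enzyme, was at 45.7, 42.8 and 44.4 scaled FPKM in FW00K, 64.2, 20.4 and 20.3 in FW11K, and 17.9, 10.4 and 10.7 in FW33K (limma adjusted p = 0.0262). In *ATP1B1* and *ACE* too FW33K lay below FW00K without overlap (log2 difference -1.36 and -1.74). Replicate 1 of FW11K stood above replicates 2 and 3 in both. *MAP3K15*, a stress-activated kinase, was at 4.39, 3.82 and 4.29 scaled FPKM in FW00K, 5.63, 2.81 and 2.58 in FW11K, and 2.52, 4.08 and 4.92 in FW33K (limma adjusted p = 0.810), and its groups overlapped. The study reports that *MAP3K15* differed between FW00K and FW33K and that its expression fell with salinity over the FW treatments. In the study's list of salt-responsive genes *MAP3K15* is marked only for FW33K against SW33K. In FPKM without scaling *MAP3K15* was placed as gradual and lower, but was not past the threshold of 0.01 (limma adjusted p = 0.0163). *PRKG1*, the cGMP-dependent protein kinase, passed as a gradual fall, with 16.3, 17.7 and 18.0 scaled FPKM in FW00K, 5.66, 6.02 and 7.08 in FW11K, and 4.69, 3.75 and 3.68 in FW33K (limma adjusted p = 0.000293).

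Peaks at 11 g/L were frequent in the lists for immune cells. Of 11 myeloid genes tested 7 passed and all 7 were peaks, of 15 lymphoid genes 5 were peaks and 1 rose only at 33 g/L, and of 12 genes of antigen processing 10 were peaks and 1 was complete at 11 g/L. The share past the F test was 63.6% of myeloid, 40% of lymphoid and 91.7% of antigen processing genes. Among all tested genes with a symbol 78.4% passed and 4% were peaks. *NCF1*, a subunit of the phagocyte oxidase, was at 94.9, 82.4 and 83.3 scaled FPKM in FW00K, 132, 252 and 264 in FW11K, and 56.6, 53.7 and 54.7 in FW33K. *CYBA*, of the same enzyme, was at 144, 174 and 180 scaled FPKM in FW00K, 221, 458 and 471 in FW11K, and 91.6, 96.5 and 99.2 in FW33K. Both were highest in every FW11K library and lowest in every FW33K library. *MPEG1*, a pore-forming protein of macrophages, was at 55.8, 48.3 and 49.3 scaled FPKM in FW00K, 56.4, 94.7 and 93.2 in FW11K, and 26.2, 15.0 and 14.9 in FW33K. Here replicate 1 of FW11K was barely above FW00K.

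Of the lymphoid genes past the test, 5 of 6 were peaks. *CORO1A*, an actin regulator of leukocytes, was at 247, 284 and 298 scaled FPKM in FW00K, 313, 654 and 682 in FW11K, and 127, 114 and 118 in FW33K. *PRF1* (2 of 5), the perforin of cytotoxic cells, was at 1.92, 3.85 and 2.91 scaled FPKM in FW00K, 5.20, 10.03 and 8.08 in FW11K, and 0.585, 0.861 and 0.560 in FW33K. The 16 lymphoid genes with an identifier, 15 of them tested, summed to 1240, 1630 and 1580 scaled FPKM in FW00K, 1110, 8520 and 8130 in FW11K, and 793, 791 and 774 in FW33K. In FW11K replicate 1 this sum was below every FW00K library, and 6 of the 15 genes lay above both end levels in replicate 1, against 13 of 15 in replicates 2 and 3. Immunoglobulin light chain genes named *IGKC*, of which 7 copies are among the 15 and none passed the test, were peaks by their means, and reads may be split among the copies. *ZNF683*, a transcription factor of tissue-resident lymphocytes in mammals, went the other way, at 1.36, 2.02 and 2.20 scaled FPKM in FW00K, 7.36, 2.24 and 2.50 in FW11K, and 47.9, 57.4 and 59.0 in FW33K.

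The calls behind these peaks depended on single libraries, of FW33K and FW00K as well as FW11K. Without replicate 1 of FW11K, 10 of 11 myeloid and 13 of 15 lymphoid genes were peaks past the test, against 2224 of all 15431. Without replicate 2 of FW11K 1 and 3 were, against 101 of all 15385. With replicates 2 and 3 averaged none was (limma, 9 and 6 genes at an unadjusted p under 0.05). Without replicate 2 or replicate 3 of FW33K, no myeloid and no antigen processing gene passed (limma, 11 and 12 genes at an unadjusted p under 0.05), and without replicate 3 of FW00K 2 and none did. Over all tested genes 858, 819 and 954 passed in these settings. By means, FW11K was above FW00K and FW33K in 9 myeloid, 13 lymphoid and 11 antigen processing genes, and in 9, 14 and 11 with replicates 2 and 3 averaged. The counts over all 15421 tested genes were 5120 and 4809. Without scaling, 4 myeloid genes were peaks and 7 one-way and lower in FW33K, and 3 lymphoid genes were peaks and 4 one-way and lower. Of all 15621 genes tested then, 1160 were peaks and 6975 one-way and lower. The FW11K level was above both end levels in replicate 1 and also in replicates 2 and 3 for 7 of 11 myeloid, 5 of 15 lymphoid and 8 of 12 antigen processing genes, against 2088 of all 15421. For antigen processing, where several members are copies of the immunoproteasome subunit *PSMB8*, 10 genes were peaks without replicate 1 of FW11K and none without replicate 2 of FW11K. *PSMB8* (2 of 10) was at 43.0, 91.8 and 98.0 scaled FPKM in FW00K, 139, 275 and 298 in FW11K, and 46.4, 24.9 and 30.7 in FW33K.

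**Figure D5:**
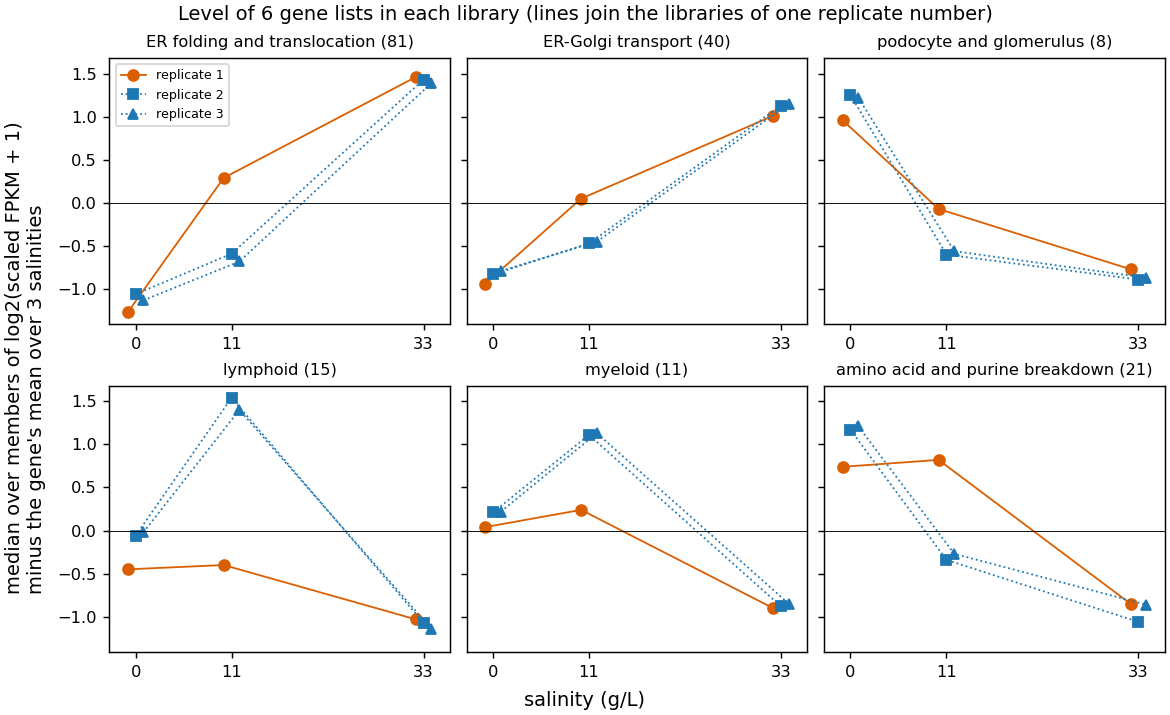
Median over the members of 6 gene lists of log2(scaled FPKM + 1) minus each gene's mean over the 3 salinities (y axis) against salinity in g/L (x axis), for each library, with lines that join libraries of the same replicate number for reading only. For the 81 ER genes FW11K replicate 1 is at 0.29 and replicates 2 and 3 at -0.59 and -0.68, and for the 15 lymphoid genes FW11K replicate 1 is at -0.40 and replicates 2 and 3 at 1.54 and 1.40.

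The erythroid and cell cycle lists held peaks among other shapes. The share past the F test was 63.6% of erythroid and 40.9% of cell cycle genes. Among all tested genes with a symbol 78.4% passed and 4% were peaks. Of 11 erythroid genes, 2 peaked, 1 was complete and higher at 11 g/L, and 2 rose and 1 fell only at 33 g/L. A further 1 dipped and 4 did not pass. Without scaling 6 passed, 5 peaks and 1 lower, where 8588 of all 15621 genes passed, 1160 of them as peaks. *UROD*, of haem synthesis, was at 18.4, 20.04 and 20.9 scaled FPKM in FW00K, 71.9, 133 and 140 in FW11K, and 25.9, 50.3 and 51.5 in FW33K. *SLC11A2* (2 of 2), an iron transporter that is also used outside red cells, dipped instead, at 28.7, 37.2 and 36.04 scaled FPKM in FW00K, 46.2, 13.8 and 14.2 in FW11K, and 88.7, 143 and 144 in FW33K. Of 22 cell cycle genes 9 passed, with 5 peaks, 1 rise and 3 falls. Without replicate 1 of FW00K 15 passed, 12 of them as peaks, and without replicate 2 of FW11K 4 passed, 2 of them as peaks. Over all genes 2680 of 15116 and 1349 of 15385 passed, 476 and 101 of them as peaks. The median deviation of the 22 genes from their means was 0.56 in FW00K replicate 1 and -0.65 and -0.43 in replicates 2 and 3 (log2), and the part of the germ cell genes, whose sum was 46.4 scaled FPKM in FW00K replicate 1, was not tested. *CDK1*, the kinase that drives entry into mitosis, was at 25.6, 12.4 and 13.1 scaled FPKM in FW00K, 40.6, 72.9 and 72.4 in FW11K, and 12.8, 11.6 and 12.4 in FW33K. *CKS2*, its binding partner, was at 19.8, 10.3 and 10.4 scaled FPKM in FW00K, 42.3, 80.2 and 85.0 in FW11K, and 8.57, 15.9 and 11.4 in FW33K. All FW11K libraries were above the other 6 for *CDK1*, *CKS2* and *UROD*, and the distance was larger in replicates 2 and 3.

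Mitochondrial genes were few and mixed. The share of respiratory chain genes past the F test was 77.8%, against 78.4% of tested genes with a symbol. Of 9 respiratory chain genes tested, 4 rose, 1 fell, 1 peaked, 1 dipped and 2 did not pass. Without scaling 3 passed, 1 lower, 1 peak and 1 dip, where 8588 of all 15621 genes passed. *NDUFS1* (1 of 2), of complex I, dipped, at 12.2, 16.2 and 16.7 scaled FPKM in FW00K, 6.96, 5.44 and 4.96 in FW11K, and 24.8, 63.0 and 66.2 in FW33K. *NDUFA4* (2 of 2) rose only at 33 g/L, at 26.4, 33.5 and 40.6 scaled FPKM in FW00K, 40.4, 35.2 and 37.6 in FW11K, and 116, 122 and 123 in FW33K. *COX6A2*, the muscle form of a cytochrome oxidase subunit, fell only at 33 g/L by its mean, at 12.0, 11.3 and 11.5 scaled FPKM in FW00K, 3.51, 12.5 and 13.0 in FW11K, and 1.47, 0.608 and 1.12 in FW33K. Replicate 1 of FW11K was apart from the other FW11K libraries for *COX6A2*.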

How the data were processed

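Kidney RNA of individual sticklebacks was sequenced as 100 bp paired-end reads. The authors removed low-quality reads, trimmed the rest, aligned them with TopHat2 2.0.3 to the Ensembl BROADS1 genome with polymorphic sites masked, and estimated the deposited FPKM per gene and library with Cufflinks 2.0.2 (versions per the submitters' processing notes). Treatments were taken from the sample titles. The labels number the replicates but do not say what a number shares.

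FPKM of the 9 FW libraries were divided by median-ratio size factors (0.453 to 1.62), and log2(scaled FPKM + 1) of the 15421 genes averaging 1 or more was fitted with limma 3.58.1 in R 4.3.3 (trend, 1 mean per salinity). The F test over the 3 salinities and the contrast off the straight line were adjusted by Benjamini-Hochberg over all tested genes, with a threshold of 0.01. Fold changes on the log2(value + 1) scale understate those of low genes. No count model was used, since FPKM hold no read counts. Figures were drawn in Python 3.11.15 with matplotlib 3.10.9. The fit was tested on simulated data with 200 changed genes, drawn as 9 independent libraries. The closeness of replicates 2 and 3 was not simulated, so this run cannot show how the fit handles it.

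Named genes are, for each of the 8 classes, the 3 with the largest range among genes with a symbol whose shape stayed the same without each library in turn and whose groups did not overlap where the shape says they differ, up to 3 members of each list with at least 5 members past the test, and 10 genes of the study, of which *WNK1* had no identifier in the tables used. Some genes that this rule names are not reported here. Symbols came from the study's tables, since the reference gene table matched none of the Ensembl identifiers. Roles are those of mammalian genes of that name. The members, lists, rules and tests were chosen with earlier results of these data known. Alternatives were FPKM without scaling, quantile normalization, a pseudocount of 0.1, no filter, a mean of at least 5, all 12 libraries in 1 fit, a replicate block, averaging of replicates 2 and 3, a threshold of 0.05, other cut points, linear means, a minimum of 2-fold and leaving out each library. Reading shapes from replicate 1 alone and from replicates 2 and 3 alone was added after seeing the data.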

Additional observations from a re-analysis of the deposited data

How the results depend on the processing

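The number of genes that differed over the 3 salinities was 2790 with 9 libraries and lay between 2399 and 3974 with quantile normalization, a pseudocount of 0.1, no filter, a mean of 5 FPKM or more, a replicate block or all 12 libraries in 1 fit. In FPKM without scaling it was 8588 (3687 gradual, 869 complete at 11 g/L, 2604 only at 33 g/L, 1160 peaks, 268 dips and 201 off the straight line), with 185 one-way genes higher and 6975 lower in FW33K, where all genes together were shifted by -1.20. With all 12 libraries there were 852 peaks and 1043 genes off the straight line. At an adjusted p under 0.05 the count was 6275 (1357 gradual, 926 complete, 1302 only at 33 g/L, 1499 peaks, 1191 dips and 2655 off the line). Averaging replicates 2 and 3 left 7 genes, 1 gradual and 6 only at 33 g/L, with 0 complete at 11 g/L, 0 peaks, 0 dips and 0 off the line, in a fit with 2 samples a salinity. Leaving out single libraries gave 819 to 6765 genes, 240 to 948 gradual, 91 to 722 complete at 11 g/L, 244 to 1120 only at 33 g/L, 91 to 2224 peaks, 110 to 1751 dips and 1 to 4133 genes off the line, each time most without replicate 1 of FW11K. The mean position of FW11K moved by less than the spread of its libraries in all alternatives, between 0.249 and 0.381. Other cut points, linear means and a minimum of 2-fold kept each count of a shape within 1.5 times, as did shapes read from replicate 1 alone and from replicates 2 and 3 alone.

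Replicate numbers were not treated as pairs. Deviations from the group means of libraries with the same number correlated at -0.04 to 0.40, and 7 of the 9 libraries correlated best with a library of their own number. With the number as a replicate block, 2399 genes differed, 1915 of them among the 2790, and 104 were off the straight line.

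Of the 68 named genes, 6 stayed on their side of the threshold and 61 lost it when replicates 2 and 3 were averaged, and 65 stayed without replicate 1 of FW11K. *MAP3K15*, which did not pass the test (limma adjusted p = 0.810), was the gene whose difference of FW11K from the mean of the other salinities changed sign, with -0.14 in the 9 libraries, 0.05 without scaling (limma adjusted p = 0.0163), 0.05 with averaging and 0.03 without replicate 3 of FW11K, and lay between -0.42 and 0.03 over the libraries left out. The depth behind single values is unknown, and values under 1 FPKM, such as those of *SLC5A8* in FW00K or *MIOX* in FW33K, give a level near 0 and no reliable fold.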

Other observations

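The SW33K libraries took no part in the placement and were scaled to the same reference. Over the 579 genes that were higher only at 33 g/L in FW fish, the median deviation from the mean of the 3 FW salinities was -0.64 in FW00K, -0.58 in FW11K and 1.24 in FW33K, and 0.49 in SW33K (log2). Over the 420 gradual and higher genes it was 0.54 in SW33K and 0.88 in FW33K, and over the 287 genes with a fall complete at 11 g/L -0.23 in SW33K and -0.51 in FW33K. Over the 485 peaks it was -0.59 in SW33K and -0.50 in FW33K, and over the 457 dips 0.26 in SW33K and 0.55 in FW33K. Population and the number of mismatches allowed in alignment cannot be told apart here.

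Markers of tissues beside the kidney were tested too. Of all tested genes with a symbol 78.4% passed the F test and 21.0% were one-way and lower, so passing does not set these markers apart. Of 12 skeletal muscle genes 7 passed (58.3%), 6 of them lower in FW33K, and of 5 germ cell genes 3 passed (60%), 2 higher and 1 as a peak. Of 9 liver and exocrine pancreas genes 8 passed (88.9%), 3 higher and 5 lower. *PROC*, the anticoagulant protein C, fell gradually, at 30.4, 36.9 and 36.9 scaled FPKM in FW00K, 16.9, 10.99 and 10.04 in FW11K, and 2.62, 3.59 and 4.30 in FW33K. *HGFAC*, an activator of hepatocyte growth factor, was below 1 scaled FPKM in the FW00K and FW11K libraries and at 6.71, 4.40 and 5.18 in FW33K. *CELA1* (2 of 2), an elastase, was at 0.447, 0.484 and 0.343 scaled FPKM in FW00K, 0.767, 5.51 and 5.13 in FW11K, and 5.97, 7.09 and 8.24 in FW33K. The steroidogenic gene *STAR*, the interrenal marker tested, did not pass. Of 6 genes of the distal tubule and collecting duct 4 passed (66.7%), 2 higher only at 33 g/L, 1 lower and complete at 11 g/L and 1 dip.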
